A study of Homo sapiens with 20 samples.

Results

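Sites found only in YAP-TFE3 were stretches of the human genome where the peak list of cells with the YAP-TFE3 fusion held a peak of accessible chromatin and the lists of the other 6 vectors held none. They were selected on the measured peak calls themselves: peaks of all 7 lists that overlapped by at least 1 bp were joined into 372133 sites, and the 30025 sites with a YAP-TFE3 peak and no other peak were kept. Of the 200392 sites with a YAP-TFE3 peak, 15.0% (95% Wilson interval 14.8 to 15.1%, counting error only) were of this kind. Because absence from the other lists chose them, it is not a result about them, and no test was run on it. Each one held a single YAP-TFE3 peak.

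The peaks come from ATAC-seq, in which a transposase inserts adapters into open DNA, in SW872, an established human liposarcoma line. Pools of cells stably carried 1 of 7 retroviral vectors under G418 selection: the empty vector (EV), the mutants TAZ4SA and YAP5SA, full-length CAMTA1 or TFE3, or 1 of the fusions (TAZ-CAMTA1, YAP-TFE3). Each of the 20 libraries started from 50000 cells, with 3 libraries per vector and 2 for TFE3, the third EV library is titled a redo, and the title of the YAP-TFE3 libraries names Yap5SA as the YAP part. The lists give 1 set of peaks per vector with 152702 to 236893 peaks, and read depth behind them is unknown, so no difference between vectors could be tested against replicate spread.

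YAP and TAZ are transcriptional coactivators held back by the Hippo kinases, and they reach DNA mainly through TEAD factors. TFE3 is a basic helix-loop-helix leucine zipper factor of the MiT family, better known for lysosomal genes. Its fusion to YAP, like that of TAZ to CAMTA1, is found in epithelioid hemangioendothelioma, a vascular sarcoma, and both fusion proteins act as transcriptional regulators. An ATAC-seq peak marks DNA where nucleosomes give way to the transposase, as at promoters and enhancers, and says nothing by itself about which protein bound there.

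The YAP-TFE3-only sites were mostly small, weak peaks. Strength is given by the area under the caller's significance curve, whose lowest value in any list is 20, and by the summit's −log10 p. The median area was 41.8 (quartiles 28.3 to 69.2) over the 30025 sites, and the median summit −log10 p was 3.85 (3.62 to 4.18). The median width was 95 bp (79 to 121 bp). YAP-TFE3 peaks that overlapped a peak of another list had medians of 207 for area, 5.20 for summit −log10 p and 223 bp for width over 205770 peaks. Only 18.1% of all YAP-TFE3 peaks had an area below the median of the YAP-TFE3-only sites.

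A long upper tail stood beside this weak majority. The areas reached 325 at the 99th percentile and 2393 at the top, the summit −log10 p reached 9.86, and the width reached 1454 bp. A summit of 5 or higher on the −log10 p scale was seen in 1385 of the sites (4.61%), against 47.5% of all YAP-TFE3 peaks. The values went together across the 30025 sites, with a Spearman correlation of 0.87 between area and summit −log10 p and of 0.67 between area and width, which share the same reads. The summit sat near the middle of the peak, at a median of 0.50 of its width.

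The weaker or narrower a YAP-TFE3 peak was, the more often it was found in no other list. Below a summit −log10 p of 3.5, 3460 of 9117 YAP-TFE3 peaks (38.0%) were found only there. From 3.5 to 4 the share was 30.3%, from 4 to 4.5 it was 18.5%, and from 4.5 to 5 it was 9.71%. Between 5 and 6 it came to 3.69%, between 6 and 7 to 0.93%, and at 7 or more 55 of 61979 peaks remained (0.089%). By width, 31.7% of the peaks above 50 and up to 100 bp were YAP-TFE3-only, and 8 of the 29066 peaks wider than 1000 bp were. The rule bears on these shares, since a wider peak has more bases that a peak of another list can overlap. Width also went with summit −log10 p among the YAP-TFE3-only sites (Spearman correlation 0.52). How much of the fall comes from the rule was not tested.

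**Figure D1:**
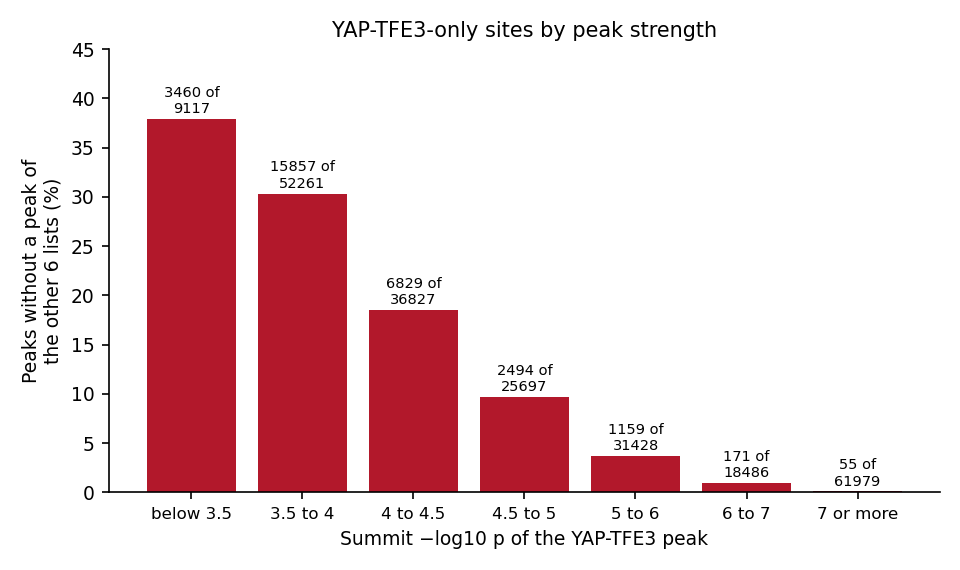
Bars give, for each class of summit −log10 p of a YAP-TFE3 peak (horizontal axis), the percent of peaks without a peak of the other 6 lists (vertical axis), with the counts written above. The share falls from 38.0% below 3.5 to 0.089% at 7 or more.

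The other lists had single-list sites of the same small kind. EV, the control, had 12398 sites of its own (9.79% of its sites), with a median area of 32.8 and a median width of 91 bp. YAP5SA had 39242 (21.6%), TAZ-CAMTA1 34791 (16.4%), CAMTA1 21038 (11.6%), TAZ4SA 18298 (16.4%) and TFE3 1522 (1.32%). The median areas of these other sets lay between 28.8 and 41.1, below the 41.8 of the YAP-TFE3-only sites. By median summit −log10 p the order differed. TAZ4SA-only (4.12), YAP5SA-only (3.96) and EV-only sites (3.94) were above the 3.85 of the YAP-TFE3-only sites. CAMTA1-only (3.84), TAZ-CAMTA1-only (3.77) and TFE3-only sites (3.77) were below it. On the same scale, 6 or more was reached by 226 YAP-TFE3-only sites, by 1018 YAP5SA-only sites, by 50 TAZ-CAMTA1-only sites and by 43 or fewer in each remaining list. The 226 were 0.75% of the YAP-TFE3-only sites, against 34.1% of all YAP-TFE3 peaks. At 5 or more, the share of each single-list set was 9.23% for YAP5SA, 4.61% for YAP-TFE3 and 4.17% for TAZ4SA. It was 1.73% for TAZ-CAMTA1, 1.45% for CAMTA1, 0.99% for EV and 0% for TFE3. In these counts and shares the YAP-TFE3-only set was above that of the other fusion and below that of YAP5SA. The unknown read depth limits such comparisons of summit −log10 p between lists.

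At the edge of the rule, 226 YAP-TFE3-only sites lay 0 to 10 bp from a peak of another list, 22 of them touching it, with a median area of 35.8. On the other side, 260 YAP-TFE3 peaks overlapped a peak of another list by 1 to 10 bp and were not kept, with a median area of 35.1.

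Peaks of other lists were often close by. From a YAP-TFE3-only site to the closest peak of another vector the median was 459 bp (quartiles 157 to 2615 bp), where distance is the number of bases between edges. Such a peak was within 1000 bp for 18901 sites (63.0%) and more than 10000 bp away for 3083 (10.3%). The TAZ-CAMTA1 list gave the nearest peak for 37.7% of the sites, at a median distance of 995 bp to its own closest peak. CAMTA1 gave it for 23.9%, at 1301 bp, and YAP5SA for 21.3%, at 1614 bp. TAZ4SA (8.46%, 3574 bp), EV (7.22%, 2728 bp) and TFE3 (5.08%, 2690 bp) followed. The TAZ-CAMTA1 and YAP5SA lists are of similar length, with 236893 and 230886 peaks, and the 3 lists that followed have 152702 to 171102.

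The same order among the longer lists was seen in sites shared by YAP-TFE3 with just 1 other vector. There were 11730 sites of YAP-TFE3 and TAZ-CAMTA1 alone, 5353 with CAMTA1, 4096 with YAP5SA, 1313 with EV, 1178 with TAZ4SA and 620 with TFE3. At the other end, 60372 sites had a peak in all 7 lists, which was 30.1% of all sites with a YAP-TFE3 peak.

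Other YAP-TFE3 peaks were about as near as those of other vectors. The next YAP-TFE3 peak was at a median of 473 bp from a YAP-TFE3-only site, and within 1000 bp for 18652 sites (62.1%), against 69.1% of all YAP-TFE3 peaks. The closest such pairs were 101 bp apart, which was also the lowest distance over all YAP-TFE3 peaks. Sites this close to each other come from the same libraries and partly the same stretch of DNA, so they are not independent observations.

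YAP-TFE3-only sites lay away from the sites with a peak in all 7 lists, which serve here as a map of chromatin open under every vector. The median distance was 7394 bp (quartiles 1483 to 26376 bp) over 30017 sites. The remaining 8 sites were on sequences without such a site. A distance over 10000 bp was seen for 13133 of them (43.7%), against 24.5% of all YAP-TFE3 peaks. That background includes the YAP-TFE3 peaks inside sites of all 7 lists, and among peaks shared with 1 to 5 other lists the share was 37.1% and the median distance 5466 bp.

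Set beside the other vectors, this distance was in the upper part of the range. TAZ4SA-only sites were farther, at a median of 9766 bp, and YAP5SA-only sites were at 7456 bp, next to the 7394 bp of YAP-TFE3. EV-only sites had 6365 bp, TFE3-only 4929 bp, CAMTA1-only 4718 bp and TAZ-CAMTA1-only 4260 bp. YAP-TFE3 was below YAP5SA at the lower quartile, with 1483 against 1920 bp, and above it at the upper quartile, with 26376 against 22688 bp. At the upper quartile TAZ4SA had 29995 bp and TAZ-CAMTA1 13497 bp.

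**Figure D2:**
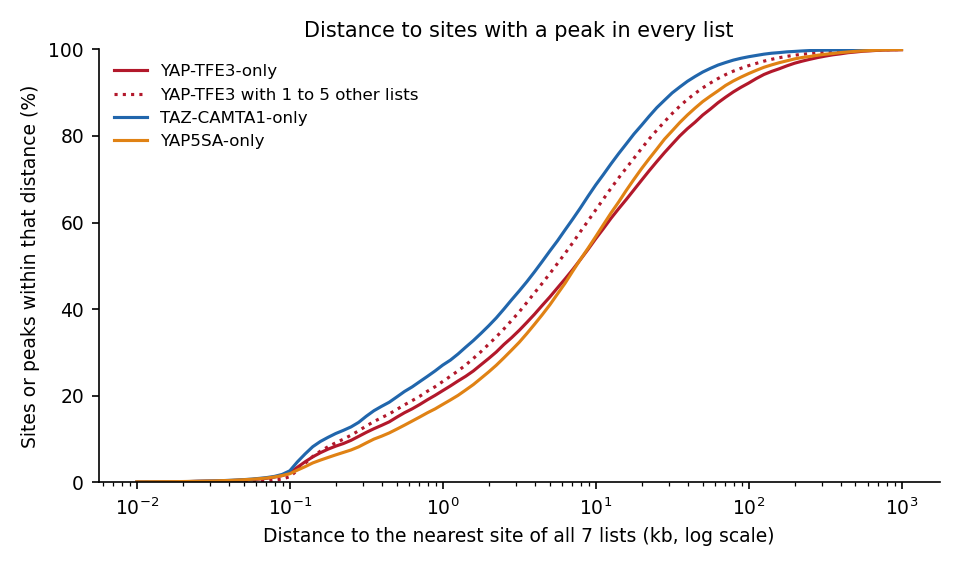
Lines give the percent of sites or peaks (vertical axis) within a given distance in kb (horizontal axis, log scale) of the nearest site with a peak in all 7 lists. The TAZ-CAMTA1-only line lies highest, with a median of 4260 bp, and the YAP-TFE3-only line crosses the YAP5SA-only line near the middle and ends below it.

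The stronger YAP-TFE3-only sites were the farther ones. The median distance to a site of all 7 lists was 7171 bp below a summit −log10 p of 3.5 and 6368 bp from 3.5 to 4. It was 7842 bp from 4 to 4.5, 10681 bp from 4.5 to 5, 16760 bp from 5 to 6 and 49344 bp from 6 to 7. The 55 strongest sites, at 7 or more, had 32679 bp. Without the members of clusters of 10 or more, described further on, the last 3 values were 16009, 49090 and 32584 bp. Over all sites the relation was weak, with a Spearman correlation of 0.08 between summit −log10 p and distance (n = 30017), and the classes from 5 upward hold 1385 of the sites.

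TAZ-CAMTA1-only sites went from 4507 bp in the weakest class to 7501 bp from 6 to 7, over 48 sites in that class. YAP5SA-only sites went from 8717 bp to 11994 bp from 6 to 7 and 14678 bp at 7 or more. YAP-TFE3 peaks shared with 1 to 5 other lists went from 5030 bp in the weakest class to 6925 bp from 6 to 7. TAZ4SA-only sites went from 12743 bp in the weakest class to 24935 bp from 6 to 7, over 41 sites. In each of these 4 sets the class from 6 to 7 was farther than the weakest, by a smaller amount than in the YAP-TFE3-only set. EV-only sites, with 2 sites above 6, had 7316 bp in the weakest class and 5106 bp from 5 to 6. The rule bears on this value, since it removes every YAP-TFE3 peak that overlaps another list, and peaks of several lists are dense around shared sites. The other single-list sets were made in the same way.

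**Figure D3:**
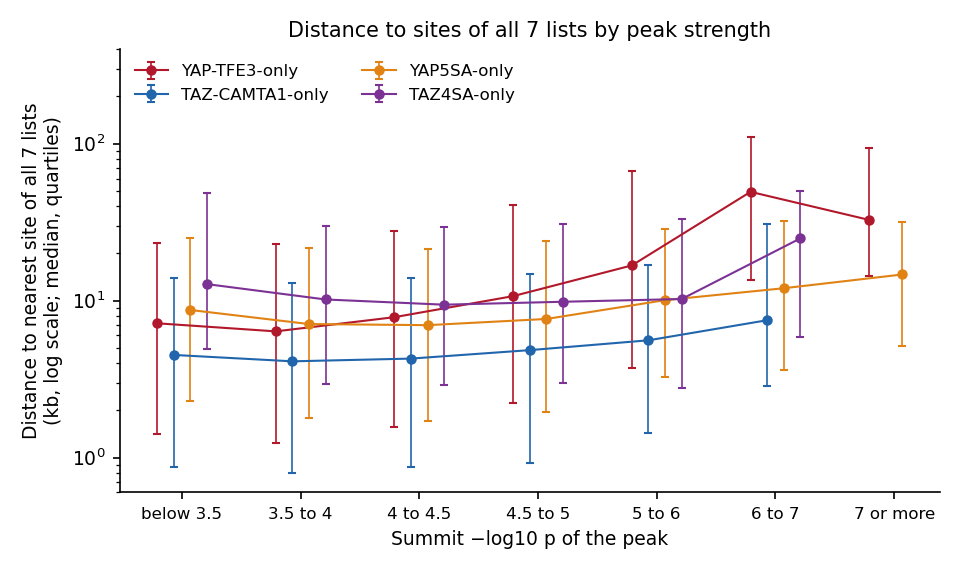
Points give the median distance in kb to the nearest site of all 7 lists (vertical axis, log scale), and bars the quartiles, for each class of summit −log10 p (horizontal axis) in 4 sets of single-list sites; classes with fewer than 20 sites are not drawn. The YAP-TFE3-only points climb to 49344 bp in the class from 6 to 7, where the TAZ4SA-only, YAP5SA-only and TAZ-CAMTA1-only points are at 24935, 11994 and 7501 bp.

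Strong YAP-TFE3-only sites were also farther than weak ones from the nearest peak of another list, and nearer to other YAP-TFE3 peaks. Where the summit −log10 p was 6 or more, the nearest peak of another list was at a median of 3561 bp and the nearest YAP-TFE3 peak at 270 bp, over 226 sites. From 3.5 to 4, these medians were 409 and 499 bp over 15857 sites. Over all YAP-TFE3 peaks the next YAP-TFE3 peak was at a median of 283 bp, so 270 bp is close to the usual spacing. Of the 226, 149 had no peak of another list within 1000 bp and 70 (31.0%) had none within 10000 bp. The rule bears on these distances too, since it keeps only sites that no other list overlaps. They are not given here for strong single-list sites of the other vectors.

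The density of widely shared sites along the genome was compared next. The autosomes and X were divided into windows of 1 Mb. The 2771 windows that held any single-list site were divided into quintiles by their number of sites of all 7 lists. In the quintile with 0 to 4 such sites, YAP-TFE3-only sites made up 29.4% of the 5502 single-list sites. In the next quintiles they made up 24.5%, 21.9% and 18.9%, and in the richest, with 38 to 125 such sites, 16.0% of 69132. The TAZ4SA-only share also fell, from 19.1% to 11.6%, with its lowest value of 10.1% in the quintile before the richest, and the YAP5SA-only share went from 27.8% to 23.8%. TAZ-CAMTA1-only sites went the other way, from 8.23% to 23.9%. These are shares of a whole, so a fall in one list goes with a rise in another. In number, YAP-TFE3-only sites rose from a mean of 2.78 per window in the poorest quintile to 20.7 in the richest.

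**Figure D4:**
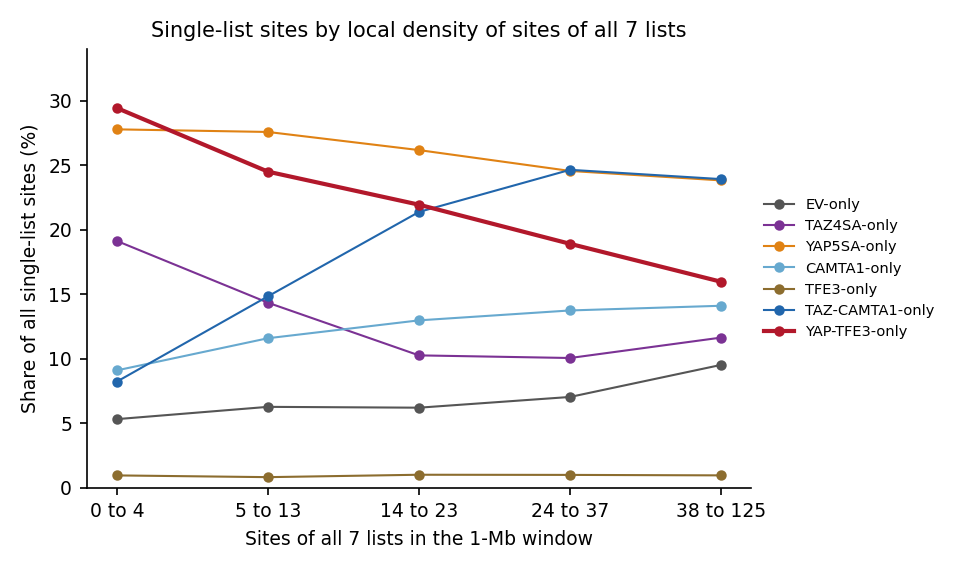
Lines give, for each vector, its percent of all single-list sites (vertical axis) in 1-Mb windows grouped by their number of sites of all 7 lists (horizontal axis). The YAP-TFE3-only share falls from 29.4% to 16.0%, while the TAZ-CAMTA1-only share rises from 8.23% to 23.9%.

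Windows rich in sites of any kind were rich in YAP-TFE3-only sites. Across the 2771 windows the Spearman correlation of their number with that of TAZ-CAMTA1-only sites was 0.72, with CAMTA1-only sites 0.70, with YAP5SA-only sites 0.67 and with sites of all 7 lists 0.75. The windows share mappability, copy number and base composition, and the values are a description only.

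Among the 2199 windows with at least 20 sites holding a YAP-TFE3 peak, the share that was YAP-TFE3-only had a median of 14.3% (quartiles 10.5 to 19.1%). The highest share, singled out after the values were seen, was 20 of 26 sites (76.9%) in the window of chromosome 12 from 88000001 to 89000000 (hg19). That window held 3 sites of all 7 lists, 1 CAMTA1-only site and no single-list site of the other 5 vectors. It also held the strongest YAP-TFE3-only site of the genome.

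By chromosome, the share of YAP-TFE3 sites found nowhere else was even. It ran from 13.2% on chromosome 9 (1288 of 9784) to 17.3% on chromosome 4 (1261 of 7303), and was 15.0% on X. Chromosome Y had 2 of 119 sites (1.68%), and 28 YAP-TFE3-only sites lay on unplaced sequences. The largest numbers were on chromosomes 1, 5 and 7, with 2500, 2462 and 2350. These were 8.33%, 8.20% and 7.83% of the YAP-TFE3-only sites, where the same chromosomes held 7.83%, 10.7% and 7.65% of all merged sites. Per Mb up to the last peak, chromosomes 20 and 19 were densest, with 18.0 and 17.8 sites, and X had 4.68. The single-list share of the YAP5SA list was less even, from 13.3% on chromosome 19 to 30.1% on chromosome 13 among the autosomes, and that of TAZ-CAMTA1 ran from 13.8% on chromosome 13 to 18.4% on chromosome 22. Chromosome 13 was thus low for TAZ-CAMTA1, high for YAP5SA and, at 16.3%, within the range of the other autosomes for YAP-TFE3.

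The strongest YAP-TFE3-only sites were broad peaks, described here for the 10 with the largest area. All positions are in hg19, counted from 1. Their areas ran from 1209 to 2393, their summit −log10 p from 7.40 to 9.86, and 3 of the 10 were on chromosome 5. Of these sites, 8 were over 10000 bp from a site of all 7 lists and 2 over 100000 bp. The nearest peak of another list was at 330 to 50405 bp, and 6 sites belonged to a cluster. Another YAP-TFE3 peak lay 107 to 14841 bp away.

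The strongest of all lay at chr12:88703129-88704196, with an area of 2393, a summit −log10 p of 9.86 and a width of 1068 bp. Its area was above that of 66.7% of the YAP-TFE3 peaks in sites of all 7 lists. The EV, TFE3 and TAZ-CAMTA1 lists had no peak nearer than 166258, 166294 and 166252 bp. The closest peaks were from TAZ4SA at 9558 bp, YAP5SA at 14746 bp and CAMTA1 at 14775 bp, and the TAZ4SA peak had an area of 36.2. The site was 1 of a cluster of 7 YAP-TFE3-only sites.

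A site at chr4:90279900-90280678, with an area of 1701 and a summit −log10 p of 8.30, stood farthest of the 10 from the other lists. Its nearest peaks in the 6 lists were all between 50405 bp (TFE3) and 51050 bp (TAZ4SA) away. The next YAP-TFE3 peak was itself at 10508 bp.

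The site at chr10:19206627-19207303 (area 1304, summit −log10 p 8.99) had a YAP5SA peak of area 37.7 at 330 bp. In the 5 remaining lists the nearest peak was at 257489 bp or more. The site was outside any cluster, with 1 other YAP-TFE3 peak within 10000 bp.

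On chromosome 5, chr5:110235511-110236964 was the widest YAP-TFE3-only site, at 1454 bp, with an area of 2136. Its nearest peak of another list was from YAP5SA at 14844 bp, and it was in a cluster of 4. At chr5:82879244-82880285 the area was 2144 and the summit −log10 p 9.24, the second highest. There, 8 peaks of other lists lay within 10000 bp, the nearest at 5806 bp. The third, chr5:162781281-162782310 (area 1967), stood among 21 peaks of other lists within 10000 bp and in a cluster of 12, with a site of all 7 lists at 3957 bp.

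The remaining 4 of the 10 differed in the same way in how isolated they were. At chr8:139888445-139889645 (area 2210) the nearest peak of another list was from CAMTA1 at 3662 bp. At chr14:25064469-25065514 (area 1661) 5 lists had a peak between 9173 and 9216 bp away, and EV had none nearer than 82300 bp. At chr11:102900134-102900810 (area 1209) the nearest was from YAP5SA at 4970 bp. The site at chr3:59232911-59233605 (area 1523) was the exception, 165 bp from a site of all 7 lists, with a TAZ-CAMTA1 peak of area 2557 at 614 bp.

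By summit −log10 p, 4 of the 5 highest were among these 10. The other was chr17:10338389-10338815, with 8.94 and an area of 1060, in a cluster of 7. By width, 3 of the 5 widest were among them, and the others were chr8:77528401-77529489 (1089 bp, area 820) and chr10:75677275-75678347 (1073 bp, area 400). The last of these had a TAZ-CAMTA1 peak at 144 bp and a CAMTA1 peak at 145 bp.

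A cluster was defined as at least 3 YAP-TFE3-only sites within 20 kb, with overlapping triples joined. There were 2283 clusters, which held 9406 of the sites (31.3%; 95% Wilson interval 30.8 to 31.9%), and 1228 of the clusters had just 3 members. The interval is for counting error only. It treats sites as independent, although neighbouring sites enter a cluster together, so it is too narrow. The YAP-TFE3 list had a median of 7 peaks across the span of a cluster, and the best represented other list a median of 4. No other list had any peak in 287 clusters (12.6%), and YAP-TFE3 had at least 3 times the peaks of each other list in 668 (29.3%). Those shares were 5.91% and 16.0% over 3280 TAZ-CAMTA1-only clusters, 11.3% and 25.7% over 3719 YAP5SA-only clusters, and 4.19% and 11.6% over 836 EV-only clusters. The share of single-list sites in clusters was higher than the 31.3% of YAP-TFE3 for YAP5SA (42.6%), TAZ-CAMTA1 (41.3%), EV (35.5%) and TAZ4SA (34.3%). It was lower for CAMTA1 (22.7%) and TFE3 (0.79%).

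Cluster membership rose with strength in the YAP-TFE3-only set, from 28.5% below a summit −log10 p of 3.5 to 37.7% from 5 to 6, 49.7% from 6 to 7 and 52.7% at 7 or more. A rise with strength was not particular to YAP-TFE3. YAP5SA-only sites went from 37.7% below 3.5 to 43.4% from 5 to 6 and 55.3% at 7 or more. TAZ4SA-only sites went from 14.9% to 49.4% from 5 to 6 and 65.9% from 6 to 7, over 41 sites, and EV-only sites from 27.9% to 56.2% from 5 to 6. TAZ-CAMTA1-only sites had 38.7% below 3.5, 40.6% from 5 to 6 and 33.3% from 6 to 7.

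The largest cluster was at chr5:94329766-94449401, a span of 119636 bp with 47 YAP-TFE3-only sites. Their areas ran from 20.3 to 735 with a median of 94.3, and 16 of them had a summit −log10 p of 5 or more. The YAP-TFE3 list had 60 peaks there, covering 14897 bp. YAP5SA had 7 peaks (948 bp), EV 5 (561 bp), TAZ4SA 5 (565 bp), CAMTA1 4 (570 bp), TAZ-CAMTA1 1 (66 bp) and TFE3 none. The highest summit −log10 p in the span was 15.2 for YAP-TFE3, at a peak shared with another list, and 3.91 to 5.77 among the other lists with a peak. The nearest site of all 7 lists was 25232 bp from its edge.

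**Figure D5:**
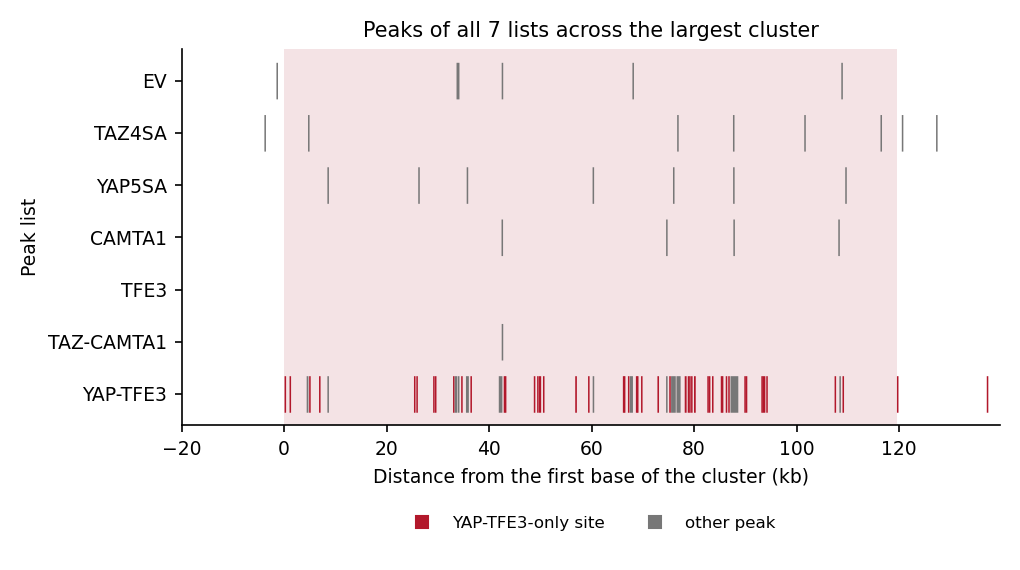
Each row is a peak list and each mark a peak, placed by its distance in kb from the first base of the largest cluster (horizontal axis, shaded over the cluster), with YAP-TFE3-only sites in red and all other peaks in grey. The YAP-TFE3 row holds 60 peaks in the shaded span and no other row more than 7.

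The next clusters were less exclusive. At chr2:3777407-3856115 there were 29 YAP-TFE3-only sites among 57 YAP-TFE3 peaks, against 29 CAMTA1, 24 YAP5SA, 22 TAZ4SA, 15 TAZ-CAMTA1, 10 EV and 7 TFE3 peaks. At chr10:11183113-11254027 there were 22 among 39, against 15 for CAMTA1 and 5 to 12 for the remaining lists. At chr19:28884479-28937769 there were 19 among 28, against 8 for CAMTA1 and TAZ-CAMTA1 and none for EV, and the nearest site of all 7 lists was 290024 bp away. At chr4:8839885-8910059 there were 19 among 48, against 33 for TAZ-CAMTA1 and 31 for YAP5SA.

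The 60 clusters with 10 or more members held 792 sites on 19 chromosomes. YAP-TFE3 had more peaks than every other list in 57 of them and at least 2 times as many in 31, and 16 held no site of all 7 lists. The rule favours such an excess, since the clusters are built from sites that only YAP-TFE3 has. Single-list clusters of 10 or more numbered 170 for YAP5SA, 109 for TAZ-CAMTA1, 94 for TAZ4SA, 72 for EV, 13 for CAMTA1 and 0 for TFE3. The largest YAP-TFE3-only cluster without a peak of any other list, singled out after the values were seen, was chr8:72913050-72929252 with 8 members, whose areas ran from 20.5 to 214.

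Apart from TFE3, the largest clusters of the other vectors were more mixed than the YAP-TFE3-only cluster on chromosome 5. The TAZ-CAMTA1-only cluster with the most members (32) had 91 TAZ-CAMTA1 peaks, 61 YAP-TFE3 and 59 CAMTA1 peaks. The YAP5SA-only one (45 members) had 128 YAP5SA and 91 TAZ-CAMTA1 peaks, and the EV-only one (53 members) 149 EV and 108 YAP5SA peaks. The TAZ4SA-only one (67 members) had 256 TAZ4SA and 239 YAP5SA peaks, and the CAMTA1-only one (23 members) 71 CAMTA1 and 54 YAP5SA peaks. Each of these held 6 to 23 sites of all 7 lists, against none in the YAP-TFE3-only cluster on chromosome 5. The next YAP-TFE3-only clusters described above held 5, 2, 0 and 1. The largest TFE3-only cluster had 3 members, 4 TFE3 peaks, at most 1 peak of any other list and no site of all 7 lists. Genes, motifs and sequences at the sites were not analysed here, since the coordinates are in hg19 and no genome of that build was used.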

How the data were processed

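ATAC-seq peak lists of 7 vectors were used, 1 list per vector. According to the study's methods, reads were trimmed with NGmerge and aligned with BWA-MEM to hg19, and peaks were called with Genrich in ATAC-seq mode after removal of PCR duplicates and blacklisted regions. The processing notes in the labels instead name Bowtie 0.12.2 and mm8, a mouse build. The lists carry human chromosome names, and their last base on chromosome 1 (249240671) lies past its end in hg38 (248956422). The methods describe calling on every replicate separately, whereas each vector has 1 list, and how libraries were combined into it is not stated in the sources used here. The area and p of a peak may therefore stand for 1 library or several. The deposited signal is the area under the curve of each peak, and the deposited −log10 p-value is that of its summit, both as the authors' caller wrote them.

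Peaks overlapping by at least 1 bp were joined with Python 3 code (pandas, numpy), tested on simulated intervals. bedtools gave the same 30025 sites, a difference of 0. Distances are bases between edges. No list holds values per library, so shares carry Wilson intervals and no test was run. Named were the 10 sites with the largest area, the 5 with the highest summit −log10 p, the 5 widest and the 5 clusters with the most members, with others said to be singled out. The sites and these lists were chosen with earlier results of these data known. Alternatives were stricter summits, lists of equal length, summit windows, joined neighbours, autosomes alone, each other list left out, and other cluster sizes. The deposited q-values were not used.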

Additional observations from a re-analysis of the deposited data

How the results depend on the processing

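No paired analysis was possible because each vector has 1 list and the libraries have no values of their own. Of 39 alternative values, 15 stayed within 1.5 times of the reported count or within the 95% interval of the reported share or median, and 24 moved beyond these limits. The intervals treat sites as independent, which neighbouring sites are not, so they are a narrow yardstick.

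The number of YAP-TFE3-only sites fell from 30025 to 19134 with a limit of 4 on the summit −log10 p in all lists and to 10762 at 5. It was 1385 with that limit on the YAP-TFE3 list alone, 12449 and 11620 with 152702 peaks per list taken by summit −log10 p and by area, 16254 with windows that reached 250 bp either way from each summit, and 9551 with peaks up to 1000 bp apart joined. The share of YAP-TFE3 sites went from 15.0% to 12.6% at a summit of 4, 9.28% with equal numbers by summit and 7.92% with joined neighbours. Leaving out 1 other list gave 30714 to 44788 sites, the most without TAZ-CAMTA1. Joining touching peaks, chosen after seeing the data, gave 30003.

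The median distance of 7394 bp became 8916 bp at a summit of 4, 20118 bp at 5 in the YAP-TFE3 list alone, 9167 bp with equal numbers, 17202 bp with joined neighbours, 11126 bp to sites of all 7 lists under 2 kb wide and 8185 bp between centres. The share in clusters of 31.3% became 20.9% at a summit of 4, 4.77% at 5 in the YAP-TFE3 list alone, 13.4% with equal numbers and 3.86% with joined neighbours. It was 18.8% for 3 sites within 10 kb, 55.8% within 50 kb, 7.65% for 5 sites within 20 kb and 28.9% without the 274 bins of 500 kb with the most weak peaks. Fewer sites enter under the stricter limits, so fewer can form clusters. The unknown read depth of each list limits every count of sites found in 1 list.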
